A study of Mus musculus with 9 samples.

Results

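The comparison of IFNγ plus FK866 with media covers 6 of the 9 libraries of the series, 3 in each group, and was described across 15237 of the 55487 genes in the count table, those with enough reads to be tested. All libraries come from B16F10, a transplantable melanoma line from a C57BL/6 mouse, and RNA was taken after 6 h of treatment. Media libraries received neither agent. The others received interferon gamma (IFNγ) at 50 ng/mL together with FK866 at 50 nM. The remaining 3 libraries, with IFNγ alone, entered the same model and serve as a reference. Each group has 1 library numbered 3, 1 numbered 4 and 1 numbered 5. The labels attach the word Control to these numbers in every group and do not say what they stand for, so libraries with the same number were treated as pairs, and p-values measure the spread between these libraries only. No group received FK866 without IFNγ, so FK866 and IFNγ cannot be told apart against media. The protocol speaks of mouse or human IFNγ and gives a product for the mouse protein only, and neither the solvent of FK866 nor a vehicle in the media group is stated.

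IFNγ binds the receptor chains IFNGR1 and IFNGR2, the kinases JAK1 and JAK2 phosphorylate STAT proteins, and STAT dimers bind gamma-activated sites in promoters. Among the first genes switched on is Irf1, whose product acts on further promoters through interferon-stimulated response elements. FK866 binds and inhibits NAMPT, which converts nicotinamide to nicotinamide mononucleotide and so returns it to NAD, the coenzyme of redox reactions and the substrate of PARP enzymes and sirtuins. In melanocytes and melanoma cells the pigment genes are driven by MITF.

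Library totals ran from 15317003 to 18466972 counts, and the genes tested held 99.89% of all counts. The first principal component of the most variable genes carried 56.1% of the variance and set media apart from all libraries with IFNγ. The second carried 28.9% and set number 3 apart from numbers 4 and 5 in every group. All 7 melanocyte lineage markers, such as Mitf, Tyr and Dct, had enough reads to be tested, and their summed level was 16860 to 19000 CPM in media and 14970 to 17060 CPM with IFNγ plus FK866. None of 7 defining leukocyte markers was tested, and their sum did not exceed 0.383 CPM in a media library or 0.502 CPM with IFNγ plus FK866. None of 8 defining fibroblast, endothelial and keratinocyte markers was tested either, with sums of at most 0.93 and 0.883 CPM. Of longer lists of 19 and 15 such markers, 1 and 3 were tested. Ptprc, Itgam, Csf1r and Adgre1 had 0 counts in all 9 libraries. Krt5, Krt14, Epcam and Cdh5 were at 0 as well. Levels here are CPM, counts scaled to a common library size by the TMM method.

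The combination changed a large part of the transcriptome, with steep rises and shallow falls. Of the genes tested, 1299 (8.53%) were higher and 1160 (7.61%) lower than in media, 2459 in all (16.1%; edgeR quasi-likelihood test with the number as a block, Benjamini-Hochberg adjusted p below 0.05). By at least 2-fold, 540 (3.54%) were higher and 107 (0.702%) lower. The counts for gene lists below are to be read against these shares. The median log2 fold change was 0.74 among the higher genes and -0.38 among the lower ones, against -0.02 over all genes tested. In bulk RNA, a change in every cell and a change in the share of responding cells cannot be told apart. The 540 genes with the steeper rises summed to 0.611% ± 0.0412 of the TMM-scaled library size in media (SD, n = 3 in each group). Their sum was 3.11% ± 0.391 with IFNγ plus FK866 and 3.13% ± 0.33 with IFNγ alone. The 1160 lower genes went from 11.5% ± 0.463 to 8.98% ± 0.338 of that scaled size. These are not plain shares of the counts, and their SDs include the spread of the scaling factors. Both sets were chosen by their change between these same media and combination libraries. The direction of these shifts was therefore fixed by the choice, and the values describe only their size.

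All 3 pairs moved in the same direction for 1245 of the 1299 higher and 1148 of the 1160 lower genes, and for 6289 of all 15237 genes tested. The paired test itself favours genes whose pairs move together. The levels of the groups did not overlap for 873 of the higher and 539 of the lower genes. Over all genes tested, the groups did not overlap for 7.98% with the combination on the higher side and 6.29% with it on the lower side. Protein-coding genes made up 1115 of the higher and 1101 of the lower genes. The counts depend on the pairing: without the block, 421 genes were higher and 91 lower (326 and 28 by at least 2-fold), and all of these 512 were among the 2459. Without number 4, 855 were higher, 543 lower and 57 lower by at least 2-fold. The lower genes were 701 without number 5, 691 without media library 4 (69 of them by at least 2-fold), 667 without IFNγ plus FK866 library 4 and 764 without its library 5.

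The GTPases that attack the vacuoles of intracellular microbes rose furthest. The immunity-related GTPases (IRG) were higher in 12 of 13 tested members, with a median log2 fold change of 9.31, or 8.39 when the 6 members without a media read are set to their lower bounds. The member not called, Irgq, had -0.07. Gbp2, a guanylate-binding protein that coats pathogen vacuoles, had 5.58, 7.06 and 6.32 CPM in media libraries 3, 4 and 5 and 1804, 2029 and 1111 CPM with IFNγ plus FK866. Every treated library was far above every media library, and treated library 5 was the lowest of its group. Its log2 fold change was 7.99 (standard error, SE, 0.12, adjusted p = 9.51e-21), and no other gene tested gained more CPM. Irgm1, a regulatory IRG protein, had 13.3, 25 and 20.3 CPM in media and 1171, 1611 and 1413 CPM with the combination. Igtp, also a regulatory IRG protein, had 0.314, 0.383 and 0.417 CPM in media and 1169, 1186 and 953 CPM with the combination, 11.50 on the log2 scale (SE 0.12). For both genes the groups were wide apart in all 3 pairs.

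Several effector GTPases had no read or a single read over the 3 media libraries, so their fold is a bound or a wide interval. Iigp1, an effector IRG that loads onto vacuoles, had 0 counts in media and 654, 797 and 595 CPM with the combination, at least 11700-fold higher against a floor of 3 counts over the media group. Tgtp1 was at least 4460-fold higher on the same floor. Its near-identical neighbour Tgtp2 had 1 count in media, and the ratio of its counts was 18500 (95% counting interval 3330 to 732000). Counting of reads between these copies could have split them. Of 10 guanylate-binding proteins tested, 9 were higher, with a median log2 fold change of 8.82, or 7.58 with the 3 members at 0 set to their bounds. Gbp6 had a count ratio of 5670 (1020 to 224000), Gbp4 was at least 720-fold higher, and Gbp7 went from 0.381 ± 0.245 to 177 ± 44.8 CPM. The member not called, Gbp2b, reached 0.451 CPM. Without the block the counts of both families were as with it, 12 and 9.

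Promoters of the most induced genes are shown because members that rise together can be read against the letters that STAT and IRF proteins are known to bind. The stretches run 5′ to 3′ on the strand of the gene, over the 250 bases before the start of the transcript, and come from RefSeq on GRCm38.p6. Capitals mark the letters TTCNNNGAA, the core of a gamma-activated site, or GAAA, any 2 bases and GAAA again, the core of an interferon-stimulated response element, on either strand. The genes shown were picked after the matches had been seen, among those with the largest rises in CPM.
Gbp2: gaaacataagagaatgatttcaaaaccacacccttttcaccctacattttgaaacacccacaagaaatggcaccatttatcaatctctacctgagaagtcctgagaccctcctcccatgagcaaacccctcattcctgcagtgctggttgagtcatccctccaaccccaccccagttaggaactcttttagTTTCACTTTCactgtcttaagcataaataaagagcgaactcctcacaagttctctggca
Irgm1: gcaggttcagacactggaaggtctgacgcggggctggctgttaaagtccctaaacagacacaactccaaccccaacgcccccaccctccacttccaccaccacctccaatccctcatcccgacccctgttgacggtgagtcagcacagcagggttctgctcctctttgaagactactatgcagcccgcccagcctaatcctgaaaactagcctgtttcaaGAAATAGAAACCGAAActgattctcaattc
Igtp: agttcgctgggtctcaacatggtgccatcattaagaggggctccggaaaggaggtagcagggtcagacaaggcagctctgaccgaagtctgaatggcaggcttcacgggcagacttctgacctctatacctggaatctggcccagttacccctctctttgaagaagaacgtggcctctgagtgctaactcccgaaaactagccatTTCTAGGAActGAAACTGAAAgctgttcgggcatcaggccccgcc
Irf1: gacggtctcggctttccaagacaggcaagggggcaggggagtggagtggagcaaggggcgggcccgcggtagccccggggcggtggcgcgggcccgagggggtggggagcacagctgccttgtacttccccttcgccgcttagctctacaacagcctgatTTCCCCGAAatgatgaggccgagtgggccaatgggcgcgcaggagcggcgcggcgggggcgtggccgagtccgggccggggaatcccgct

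The Gbp2 stretch is chr3:142620413-142620662 on the plus strand, the Irgm1 stretch chr11:48871421-48871670 on the minus strand, the Igtp stretch chr11:58199306-58199555 on the plus strand and the Irf1 stretch chr11:53769764-53770013 on the plus strand. In Gbp2 the response element letters lie on the reverse strand, from 59 to 50 bases before the start. Irgm1 holds them in overlapping copies, from 30 to 21 and from 24 to 15 bases before the start. Igtp holds both kinds, the gamma-activated letters from 45 to 37 and the response element letters from 34 to 25 bases before the start. Irf1 holds the gamma-activated letters from 90 to 82 bases before the start. The Cxcl10 promoter held the response element letters from 213 to 204 bases before the start, and the Nampt promoter held neither in this window.

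The shares were counted in windows of 300 bases, the 250 before and the 50 after each start, on both strands. Over promoters of the genes called higher by at least 2-fold (442 promoters of 334 of the 540 genes), 18.1% held the response element letters, against 2.97% over 12710 promoters of all genes tested. The share was 3.47% among genes called higher by less than 2-fold and 1.89% among genes called lower. The gamma-activated letters stood in 14.9%, 10.3% and 4.36% of these 3 sets and in 6.7% of promoters of all genes tested. For TGACTCA, bound by AP-1 proteins, the shares were 7.92%, 3.47% and 4.44%, with 3.71% over all genes tested. For CATGTG, an M-box core bound by MITF and related proteins, they were 10.6%, 7.58% and 10.2%, with 8.47% over all. Among all 32851 promoters in the RefSeq table, the shares were 3.44% for the response element, 8.3% for the gamma-activated, 5.2% for the AP-1 and 14.2% for the M-box letters. These letters are descriptions of sequence, not sites shown to be bound, and a gene with several starts counts once for each.

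**Figure D1:**
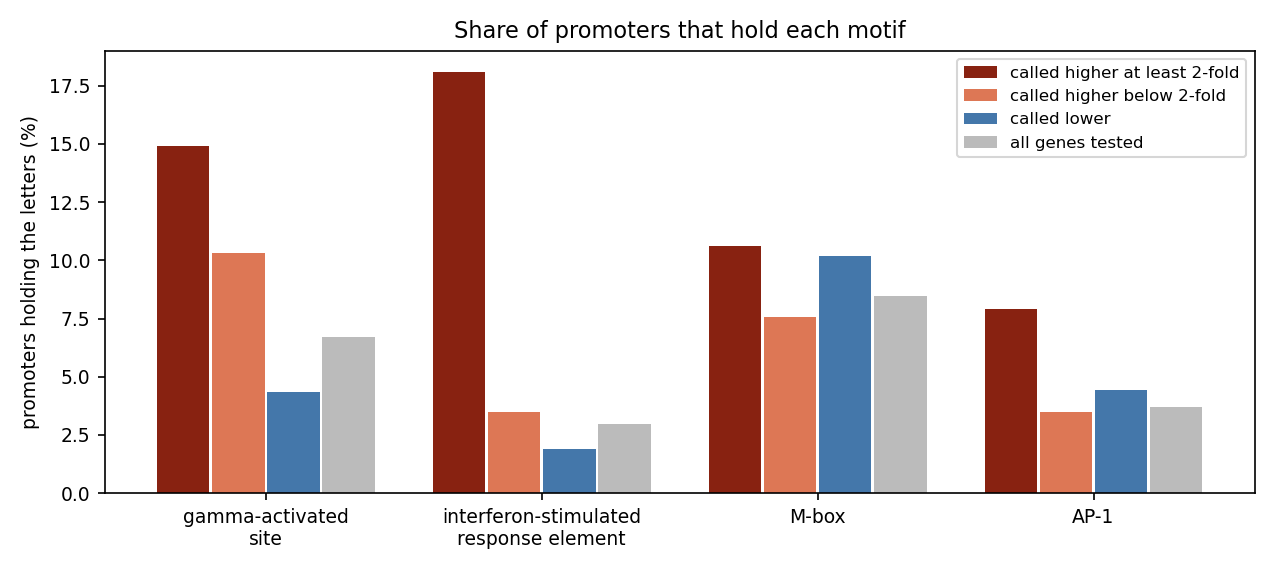
Share of promoters (percent, vertical axis from 0) that hold each of 4 motifs, for genes called higher by at least 2-fold, called higher by less, called lower, and all genes tested. The response element letters stand in 18.1% of promoters of the steepest set and in 1.89% to 3.47% of the others.

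Of 19 interferon regulatory and related factors tested, 14 were higher and none lower (12 and 0 without the block), with a median log2 fold change of 1.86. Irf1 had 20.6, 17.2 and 14 CPM in media and 718, 795 and 724 CPM with the combination. The treated libraries lay close together and far above every media library. Its log2 fold change was 5.44 (SE 0.10, adjusted p = 8.52e-20). Nlrc5, the transactivator of MHC class I genes, rose from 2.22 ± 0.304 to 219 ± 20.9 CPM. Its class II counterpart Ciita had no media read and was at least 649-fold higher. Batf2, a leucine zipper factor of the interferon response, and Irf8, a factor better known from myeloid cells, were at least 798-fold and 409-fold higher. Irf3, which is activated without new synthesis, had 0.14 and was not called, and Irf4 had -0.84 at 2.17 CPM in media and was not called.

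Of 22 receptor and JAK-STAT genes, 13 were higher and 2 lower (10 and 0 without the block), with a median of 0.37. The lower count was 1 without any 1 of the numbers, without media library 3 or 5, without IFNγ plus FK866 library 4 or 5, with DESeq2 and in a fit of these 6 libraries alone. Socs1, which blocks the JAK kinases, rose from 0.65 ± 0.0886 to 53.5 ± 2.01 CPM. Socs3, a related feedback inhibitor, rose from 6.55 ± 2.09 to 109.7 ± 28.6 CPM. Stat2, which joins IRF9 in the type I interferon complex, had 3.96 on the log2 scale (SE 0.10), and Stat3, the main STAT of the IL-6 family, rose from 93.8, 96.5 and 53 to 609, 591 and 518 CPM. Both kinases of the receptor rose by less, Jak2 with a log2 fold change of 0.79 and Jak1 with 0.41. Ifngr2, a receptor chain, fell by 0.40, while Ifngr1 had 0.04 and was not called. Without the block the calls of Jak1 and Ifngr2 were lost (adjusted p = 0.137 and 0.428).

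Effectors against viruses and sensors of foreign nucleic acid were higher in nearly all tested members. Of 30 antiviral effectors 28 were higher (24 without the block), with a median of 2.78, and of 21 genes of nucleic acid sensing 19 were higher (15 without the block), with a median of 3.29. Zbp1, a sensor of Z-form nucleic acid, rose from 0.181 to 50.1 CPM in the mean, Xaf1 from 0.645 to 40.1 and Ifit3, an RNA-binding protein with a near copy in Ifit3b, from 2.56 to 79.6. Rsad2, which makes an antiviral nucleotide, already stood at 14.7 CPM in media and reached 106 CPM. Dtx3l, a ubiquitin ligase that works with PARP9, had 4.60 on the log2 scale (SE 0.09). Of 21 apolipoprotein L, TRIM and ubiquitin-like pathway genes, 18 were higher with and without the block. Among them Apol6 was at least 808-fold higher, Trim21, an antibody receptor in the cytosol, had a log2 fold change of 4.09 and Trim25, a ligase of the RNA sensor RIG-I, 2.72. Clec2d, a ligand of an inhibitory receptor of natural killer cells, had no media read and was at least 300-fold higher.

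**Figure D2:**
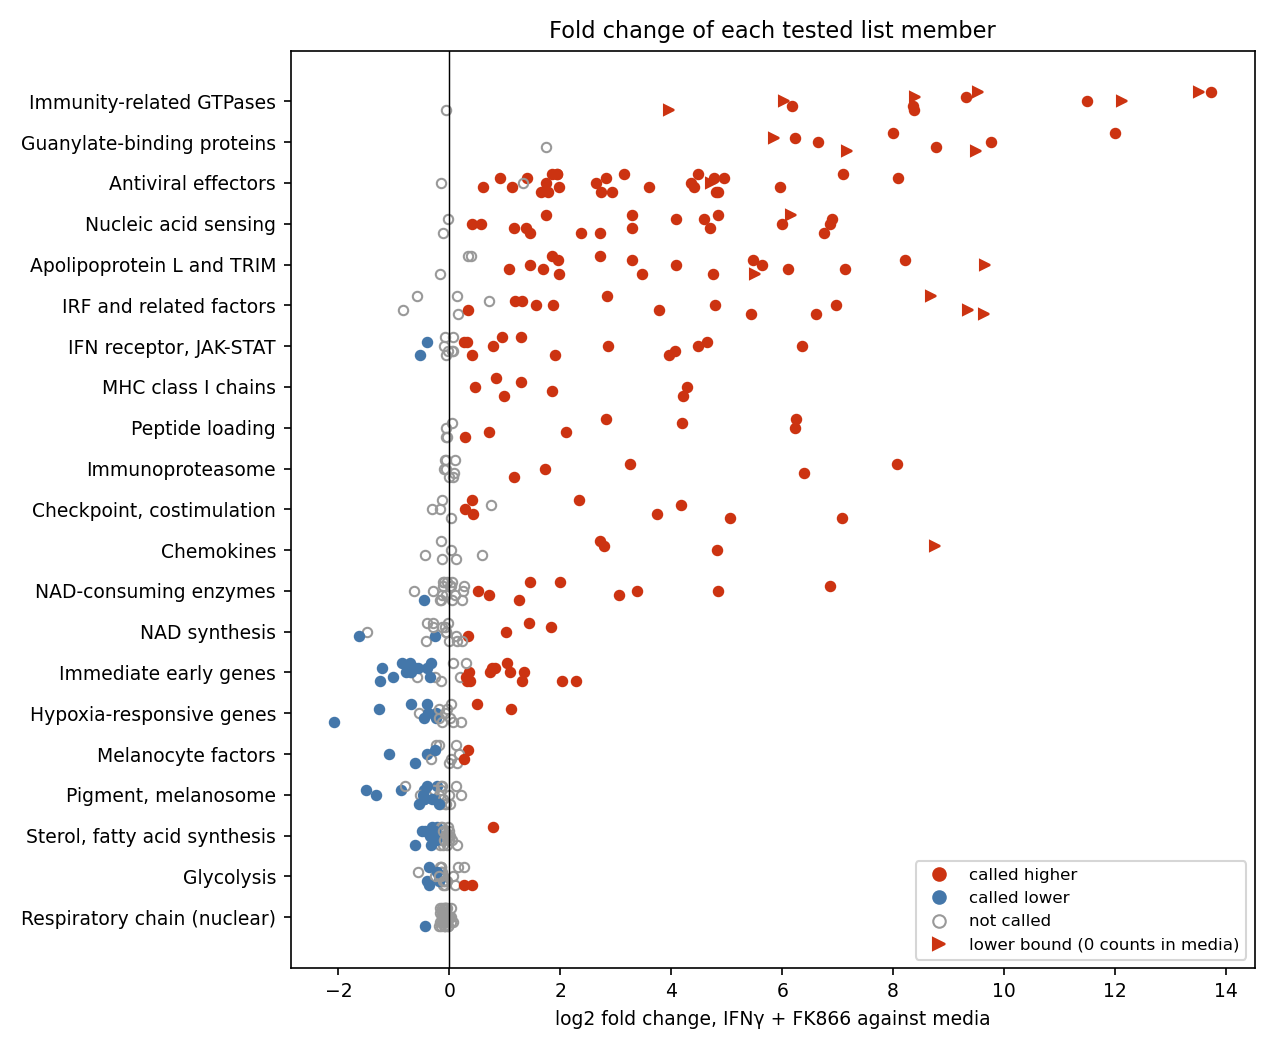
Log2 fold change of IFNγ plus FK866 against media for each tested member of 21 gene lists, with filled points for genes called higher (red) or lower (blue), open points for genes not called, and triangles for lower bounds of genes without a media read. The GTPase lists reach furthest to the right, and the nuclear respiratory chain stays between -0.44 and 0.06.

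Genes of MHC class I presentation rose at several steps, not evenly across the pairs. All 7 tested MHC class I chains were higher, with a median of 1.29. Without the block 2 of them were called. B2m, the light chain shared by class I molecules, had 251, 253 and 279 CPM in media and 659, 658 and 329 CPM with the combination. Treated libraries 3 and 4 stood far above all media libraries, while library 5 was close to its own partner. The within-pair differences were 1.39, 1.38 and 0.24 in log2 CPM, the fitted log2 fold change 0.99 (SE 0.14, adjusted p = 2.69e-05, and 0.0727 without the block). H2-K1, a classical heavy chain, had pair differences of 0.93, 1.08 and 0.46, and H2-D1, another, 0.55, 0.55 and 0.28, so number 5 was the lowest in both. Their calls were lost without the block (adjusted p = 0.301 and 0.515), and that of H2-K1 also without number 4 (0.0569). H2-T23, which presents leader peptides to natural killer receptors, went the other way, with 3.34, 3.66 and 3.85. H2-Q4 had 0.125 CPM in media library 3 against 4.54 and 2.39 in libraries 4 and 5, and its call was lost without the block (0.752). Reads of class I genes may be shared between near copies.

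Of 11 genes of peptide transport, trimming and loading, 7 were higher (6 without the block). Tapbp, which holds class I near the peptide transporter, had 2.11 on the log2 scale (SE 0.06), and its relative Tapbpl rose from 3.36 ± 1.43 to 61.1 ± 11.7 CPM. Tap1, a subunit of that transporter, had 5.33 CPM in media library 3 but 0.711 and 0.417 in libraries 4 and 5, and 195, 118 and 149 CPM with the combination, so the pair differences ran from 5.16 to 8.12. Of 13 proteasome genes 5 were higher (4 without the block): the immunoproteasome subunits Psmb10 (log2 fold change 3.26), Psmb9 (ratio 324, counting interval 89.4 to 2680) and Psmb8 (2 media counts, interval of the ratio 27.4 to 832) and the activator subunits Psme2 (log2 fold change 1.72) and Psme1, from 51.1 ± 11.2 to 117 ± 43.2 CPM (not called without the block, adjusted p = 0.0692). The constitutive catalytic subunits that these replace, Psmb5, Psmb6 and Psmb7, stood at 0.00, -0.10 and -0.06 on the log2 scale without a call. Of 4 tested genes of MHC class II presentation none was higher, and the invariant chain Cd74 had 0.55 CPM in media and 0.912 CPM with the combination (log2 fold change 0.81, SE 0.53, adjusted p = 0.37). The lysosomal enzymes Ifi30 and Ctsl were called lower, by 0.27 and 0.20. Ifi30 lost its call without the block (adjusted p = 0.739), without number 4 (0.191), media library 4 (0.0911) or IFNγ plus FK866 library 4 (0.0971). Ctsl lost it without the block (0.971), without number 4 (0.352) or 5 (0.0827), media library 4 (0.234), library 4 or 5 of the combination (0.209 and 0.135) and IFNγ library 3 (0.0608), and in a fit of these 6 libraries alone (0.1).

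Surface ligands and secreted signals were mixed. Of 13 checkpoint and costimulatory genes, 8 were higher (4 without the block, and 5 without number 4, without media library 4 or without IFNγ plus FK866 library 4). Cd274, which encodes PD-L1, had 8.4, 10.3 and 5.13 CPM in media and 271, 300.5 and 217 CPM with the combination. The groups were far apart in each pair, and the log2 fold change was 5.05 (SE 0.09, adjusted p = 9.99e-20). Tnfsf10, the death ligand TRAIL, had a count ratio of 157 (counting interval 43.1 to 1300). Tnfrsf14, a receptor of the TNF family that engages inhibitory and activating partners on lymphocytes, rose from 0.408 to 7.54 CPM. Cd276, a B7 family ligand, had -0.31 and was not called. Of 10 chemokines 4 were higher (3 without the block). Cxcl10, which attracts T cells, had 16.9, 78.8 and 25.6 CPM in media and 649, 1732 and 773 CPM with the combination. Library 4 was the highest in each group, and no treated library reached down to a media one. Cxcl9, a ligand of the same receptor, had no media read and 30.6, 38 and 3.86 CPM with the combination, so library 5 was far below the others. Cx3cl1 had 2.79 on the log2 scale (SE 0.15), while Ccl5 had 0.58 and was not called.

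Cytokine genes were higher in 7 and lower in 1 of 14 tested members (4 and 0 without the block), among the risers Csf1, the growth factor of macrophages, with a log2 fold change of 1.53, and the TNF receptor Tnfrsf1a, with 1.89. Of 23 genes of death signalling 11 were higher and none lower (9 without the block). Mlkl, the executor of necroptosis, rose from 42.6 to 123 CPM and Ripk1, a kinase upstream of it, from 50.7 to 118 CPM. Among caspase genes, Casp4 and Casp12 rose by 4.83 and 5.33 on the log2 scale, and Casp8 and Casp9 had 0.21 and -0.16 and were not called.

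**Figure D3:**
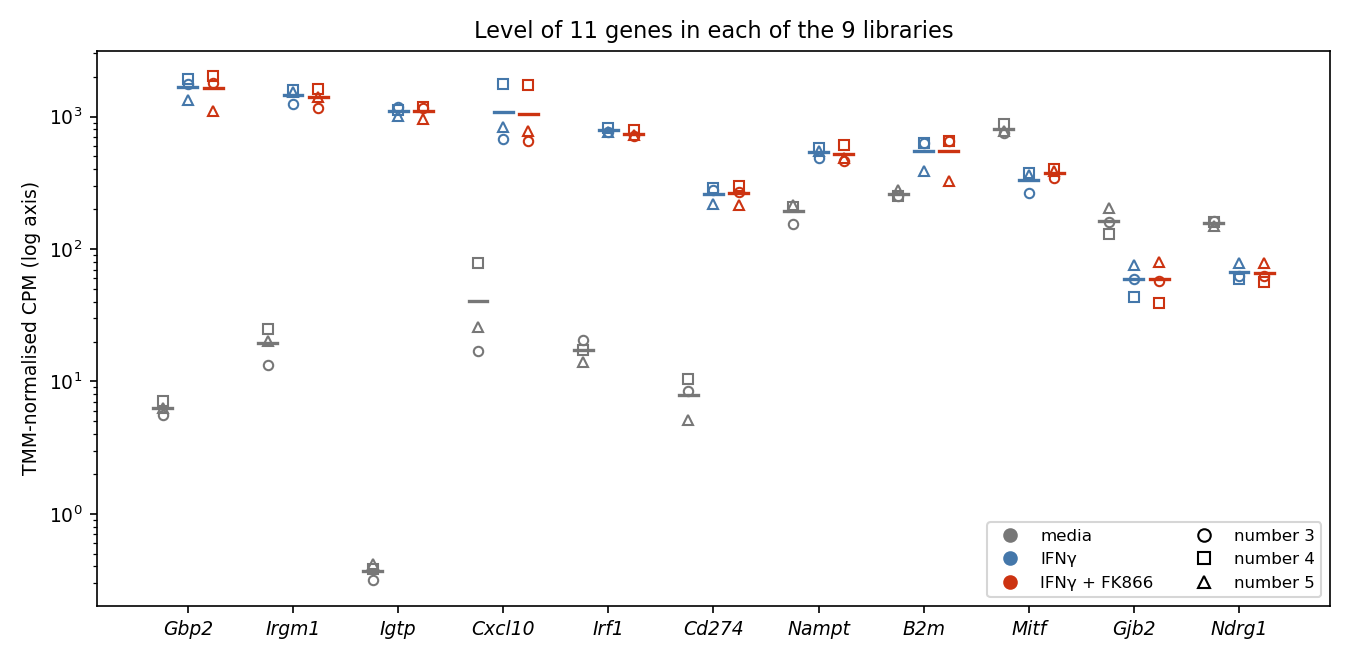
TMM-normalised CPM (log axis) of 11 genes in each of the 9 libraries, with the group mean as a bar and the library number as the symbol. Gbp2 and the 5 genes to its right rise by at least 28.3-fold (Cxcl10), Nampt by 2.72-fold and B2m by 1.99-fold, and Mitf, Gjb2 and Ndrg1 stand lower in both groups with IFNγ.

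Genes around NAD, the cofactor whose recycling FK866 blocks, were read for both synthesis and use. Over all genes tested, 8.53% were higher and 7.61% lower than in media. Of 20 genes of NAD synthesis and nicotinamide handling 4 were higher and 2 lower (1 and 0 without the block), with a median of -0.07. The lower count was 0 with DESeq2, in a fit of these 6 libraries alone, without number 4 or 5, without media library 4 or 5 and without IFNγ plus FK866 library 4, and 1 without number 3 or without IFNγ plus FK866 library 3 or 5. Nampt, the enzyme that FK866 inhibits, had 154, 207 and 216 CPM in media and 465, 612 and 486 CPM with the combination. Each treated library stood above all media libraries. The log2 fold change was 1.44 (SE 0.08, adjusted p = 8.37e-12), a 2.72-fold rise, and 1.49 with IFNγ alone. The difference between the combination and IFNγ alone was -0.05, with a 95% interval of -0.20 to 0.11. Nnmt, which methylates nicotinamide and so takes it out of the cycle, rose from 3.8 ± 2.46 to 13.1 ± 5.77 CPM, and Pnp, which releases nicotinamide from its riboside, from 6.46 ± 1.26 to 13.6 ± 6.03 CPM. Neither was called without the block (adjusted p = 0.138 and 0.325). Of the alternative routes into NAD, Naprt, Nmrk1 and Nadsyn1 were not called. Naprt, which starts from nicotinic acid, had 1.66 CPM in media and a log2 fold change of 0.12, Nmrk1 -0.30 and Nadsyn1 -0.07. Nmrk2, a kinase of nicotinamide riboside, fell from 0.899 ± 0.133 to 0.301 ± 0.196 CPM (log2 fold change -1.63, SE 0.50, adjusted p = 0.0315), a call that was lost without the block (0.166), in a fit of these 6 libraries alone (0.0604), with DESeq2 (0.106), without number 3 (0.086), 4 (0.332) or 5 (0.0603), without media library 3 (0.0664), 4 (0.147) or 5 (0.0531) and without IFNγ plus FK866 library 3 (0.0661) or 4 (0.235).

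Of 28 enzymes that use NAD, 9 were higher and 1 lower (7 and 0 without the block). The lower count was 0 without number 4 or 5 or IFNγ plus FK866 library 4 or 5, and 2 without media library 3 or 5 or IFNγ plus FK866 library 3. All 9 belong to the PARP family, which moves ADP-ribose from NAD onto proteins. Parp14 had 6.02, 5.75 and 3.88 CPM in media and 682, 660.5 and 484 CPM with the combination, 6.87 on the log2 scale (SE 0.09). Parp9, the partner of DTX3L, had 4.85, Parp10 3.39 and Parp12 3.06. Parp1, the main DNA damage enzyme of the family, had 178 CPM in media and -0.16 on the log2 scale, and was not called. All 7 sirtuins lay between -0.29 and 0.04 without a call, and the NAD glycohydrolase Cd38 had -0.63 at 1.32 CPM in media, also without a call.

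For the lists that follow, the shares over all genes tested were 8.53% higher and 7.61% lower, and several counts lie near them. None of 13 mitochondrially encoded mRNAs was called. Of 40 nuclear genes of the respiratory chain 1 was lower, and the list median was -0.09. That count was 4 without IFNγ plus FK866 library 3, 3 without media library 3, 2 without number 3, and 0 without number 5, media library 4 or 5 or IFNγ plus FK866 library 5. Of 25 genes of the TCA cycle 1 was higher and 1 lower. The lower count was 3 without media library 3, 2 without number 3, without IFNγ plus FK866 library 3 or with library totals, and 0 without number 4 or 5, without media library 4, without IFNγ plus FK866 library 4 or 5, without any 1 of the IFNγ libraries, with DESeq2 and in a fit of these 6 libraries alone. Without the block no gene of these lists was called. Of 29 genes of glycolysis 2 were higher (1 without number 4 or IFNγ plus FK866 library 4) and 5 lower (none of either without the block), with a median of -0.15. The highest of them, Pfkp, a phosphofructokinase, had 0.41 (SE 0.06), and Pdk1, which restrains pyruvate entry into mitochondria, had -0.40. The lower count for glycolysis moved between 1 (without number 4 or without media library 4) and 13 (without media library 3). It was 2 without number 5 or without IFNγ plus FK866 library 4, 3 without media library 5, without IFNγ plus FK866 library 5 or in a fit of these 6 libraries alone, and 11 with library totals in place of TMM scaling. Txnip, which curbs glucose uptake, rose from 33.6, 10 and 14.8 to 141, 56.2 and 69.9 CPM (log2 fold change 2.24, SE 0.08, adjusted p = 1.97e-14, and 0.064 without the block). The AMPK catalytic subunits Prkaa1 and Prkaa2 fell by 0.35 and 0.39, calls lost without the block (0.129 and 0.65). ATF4 targets were higher in 4 and lower in 2 of 26 tested members (2 and 0 without the block, 1 lower without number 4 and 4 lower without IFNγ plus FK866 library 3), and the stress factor Ddit3 had -0.21 and was not called. NRF2 targets and redox genes were higher in 5 and lower in 4 of 22 (1 and 0 without the block). Their higher count was 3 without number 3 or 4. Their lower count was 1 without number 3, and 2 without number 5, without IFNγ plus FK866 library 3 or 5, or in a fit of these 6 libraries alone. Osgin1, an oxidative stress response gene, rose from 29.4 ± 7.2 to 79.6 ± 12.3 CPM, and Gclm, a subunit of the enzyme that starts glutathione synthesis, from 91.9 ± 22.9 to 182 ± 62 CPM (not called without the block, 0.121).

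Mitf, the lineage factor of melanocytes, and part of the pigment genes fell. Mitf had 752, 883 and 783 CPM in media and 342, 401 and 388 CPM with the combination. Every treated library was below every media library, with pair differences of -1.14, -1.14 and -1.01. The log2 fold change was -1.10 (SE 0.07, adjusted p = 2.28e-10), beside -1.28 with IFNγ alone. The direct difference of the combination from IFNγ alone was 0.18 (95% interval 0.03 to 0.33), with an unadjusted p of 0.0199 and an adjusted p of 0.987 in the edgeR fit. Of 14 melanocyte factors and receptors 4 were lower and 2 higher (1 and 0 without the block). The higher count was 1 without number 3 or 4, without media library 4 or without IFNγ plus FK866 library 4, and 3 without number 5 or media library 5. Among the lower was Met, the receptor of hepatocyte growth factor, which fell by 0.62 (not called without the block, adjusted p = 1). Met differed widely between numbers, with 167, 484 and 931 CPM in media and 112, 292 and 636 CPM with the combination, so the groups overlapped while every pair fell.

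Of 28 pigment enzymes and melanosome proteins 13 were lower and none higher (3 without the block), with a median of -0.24. Gjb2, which the list holds although it is a gap junction connexin, had the lowest value of the list. It had 159, 130.2 and 202 CPM in media and 57.6, 39.4 and 79.8 CPM with the combination. Every treated library was below every media library. Its log2 fold change was -1.51 (SE 0.07, adjusted p = 7.11e-13). Rab32, which brings cargo to melanosomes, fell by 0.87, Trpm1, a melanocyte channel, by 0.54 and Tyr, the first enzyme of melanin synthesis, by 0.47. Mlph, which links melanosomes to myosin, fell from 831, 1225 and 1007 to 667, 843 and 706 CPM. The calls of Trpm1, Tyr and Mlph were lost without the block (adjusted p = 0.692, 1 and 0.267). The abundant products Tyrp1 and Pmel had -0.13 and -0.14 and were not called. Dct, a melanin enzyme, fell by 0.22, and its call was lost without the block (0.941), in a fit of these 6 libraries alone (0.079), without number 4 (adjusted p = 0.0502) or 5 (0.148), without media library 4 (0.0595) or 5 (0.0852) and without IFNγ plus FK866 library 4 (0.0648) or 5 (0.135).

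The following genes were among the largest falls of genes with at least 5 CPM whose groups did not overlap. Some genes of lower level and predicted genes, which the naming rule leaves out, fell further, down to -2.69 on the log2 scale. Rapgef3, an exchange factor for the GTPase RAP1 that cyclic AMP activates, had 55.2, 59.4 and 57.8 CPM in media and 17.6, 20.1 and 22.8 CPM with the combination. The groups were well apart, and the log2 fold change was -1.52 (SE 0.08, adjusted p = 6.62e-12). Ndrg1, a hypoxia and differentiation marker, went from 162, 159.9 and 149 to 63, 56.3 and 79.1 CPM, and St3gal1, a sialyltransferase, from 485, 370.0 and 414 to 226, 129 and 190.0 CPM. Bsn, a presynaptic scaffold, had -1.39, Fgf1, a growth factor, -1.34, Gpr37, an orphan receptor, -1.31, Zfp469 -1.31, Stum -1.26 and Spsb4, an adaptor of a ubiquitin ligase, -1.21. Zfp469 is annotated as a lincRNA in the GENCODE M21 release. Without the block the calls of Bsn, Fgf1, Gpr37 and Spsb4 were lost (adjusted p = 0.0551, 0.269, 0.18 and 0.106). Rab3a, a GTPase of secretory vesicles, had -1.33 beside -2.01 with IFNγ alone. In the direct contrast of the combination with IFNγ alone, Rab3a did not pass the adjustment. By CPM, the large falls beside Mitf, Dct and Mlph were Scd2, a fatty acid desaturase, from 1801 ± 493 to 1423 ± 360.2, Plxna1, a semaphorin receptor, from 740.2 ± 34.2 to 467 ± 63.3, and Mgat5, a glycan-branching enzyme, from 1229 ± 105 to 974 ± 138. Without the block Scd2 and Mgat5 were not called (0.849 and 0.379).

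Hypoxia-responsive genes were lower in 8 and higher in 2 of 20 tested members (1 and 1 without the block; 4 lower without number 4 and 5 without IFNγ plus FK866 library 4). The pair that rose was Ero1l, an oxidase of the endoplasmic reticulum, from 371, 271 and 254 to 848, 581 and 523 CPM, and the histone demethylase Kdm3a, by 0.49 (not called without the block, adjusted p = 0.308). Sterol and fatty acid genes were lower in 10 and higher in 1 of 30 (none without the block; 5 lower without number 5, 6 without media library 5 and 5 without IFNγ plus FK866 library 5), with Insig2 and Insig1, which hold SREBP in the endoplasmic reticulum, at -0.61 and -0.49 and Hsd17b7, an enzyme of cholesterol synthesis, at 0.78. Of 34 replication genes 1 was higher and 5 lower. Of 25 mitosis genes 1 was higher, Top2a with 0.36 (2 higher without number 5 or library 5 of media or the combination). The shares over all genes tested were 8.53% higher and 7.61% lower. The replication genes called lower were none without the block, 2 without number 4, without number 5 or without IFNγ plus FK866 library 4, and 3 without IFNγ plus FK866 library 5 or in a fit of these 6 libraries alone. Myc fell from 117 ± 33.7 to 71.5 ± 10.9 CPM. Without the block Insig1, Insig2, Hsd17b7, Top2a and Myc were not called (0.941, 0.592, 0.425, 0.688 and 0.235). NF-κB genes were higher in 7 of 20, 2 of them by at least 2-fold, and lower in none. Their higher count was 0 without the block. It was 4 without number 4, media library 4 or IFNγ plus FK866 library 4, and in a fit of these 6 libraries alone. Among the higher were Tnfaip2 with 0.85, Bcl3 with 2.17 and Nfkbiz with 0.80, and the largest value of the list was 2.34. Col1a2, a collagen gene, fell from 5.44 to 2.44 CPM, a call that was lost without the block (0.0571), without number 4 (adjusted p = 0.173), media library 4 (0.0588) or IFNγ plus FK866 library 4 (0.0617).

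A few called genes moved very differently in the 3 pairs. Osmr, a receptor chain of the oncostatin family, had 19, 0.0547 and 11.3 CPM in media and 65.6, 0 and 35.2 CPM with the combination. The gene was all but silent in both libraries numbered 4, so its log2 fold change of 1.71 rests on numbers 3 and 5, and its call was lost without the block (adjusted p = 0.966). Syt7, a calcium sensor of vesicle fusion, had 0, 0.492 and 6.2 CPM in media and 3.51, 3.01 and 10.1 CPM with the combination. Its adjusted p of 0.00785 became 0.93 without the block, 0.101 without number 4, 0.0763 without media library 4, 0.17 with DESeq2 and 0.0724 with limma-voom. Phxr4 had pair differences of 0.12, 1.93 and 3.02, and its call was lost without the block (adjusted p = 0.18) and without number 4 (0.0717).

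**Figure D4:**
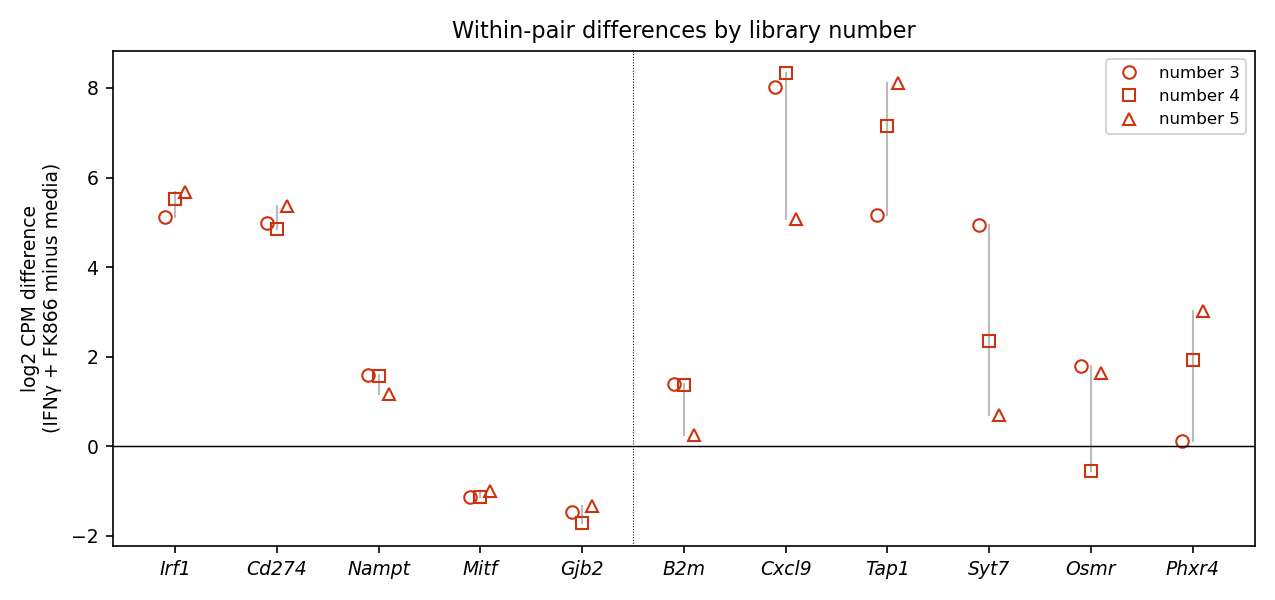
Difference in log2 CPM between IFNγ plus FK866 and media within each pair, for 5 genes with even pairs (left of the dotted line) and 6 genes with uneven pairs (right), the symbol giving the library number. The pairs of Mitf lie between -1.14 and -1.01, those of Osmr between -0.55 and 1.78.

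IFNγ alone had 1237 genes higher (8.12%) and 936 lower (6.14%) than the same media libraries. Both comparisons share their controls, so their values are only placed side by side. The 1299 genes higher with the combination had a median log2 fold change of 0.74 with it and 0.68 with IFNγ alone. The 1160 lower genes had medians of -0.38 and -0.34. Both sets were chosen by their call with the combination, which favours larger values there, so these medians do not compare the treatments. With IFNγ alone, 1089 of the 1299 were called higher and 1 lower. Of the 1160, 779 were called lower and 0 higher. Tested directly, 3 genes (0.0197%) differed between the combination and IFNγ alone, and 573 (3.76%) had an unadjusted p below 0.05. Without the block 0 genes were called by edgeR and 88 had such a p, DESeq2 with the block called 1 and limma-voom 3. Leaving out a library or a number gave between 0 (without IFNγ plus FK866 library 5) and 12 (without its library 3). The 3 are not protein-coding: Gm28661, a pseudogene (log2 fold change 0.74), Gm24497, an snRNA gene (1.90), and CT010467.1, an rRNA gene (-0.47). Gm28661 was not called without number 4 (adjusted p = 0.153) or without library 4 or 5 of the combination (0.0558 and 0.105). Gm24497 and CT010467.1 were not called without number 4 (0.999 and 0.54), and Gm24497 had 2.29, 19.2 and 28.1 CPM with the combination. Without the block all 3 had an adjusted p of 1. Gm24497 was also lost without number 5 (1), media library 4 (0.082), IFNγ plus FK866 library 4 or 5 (0.47 and 1) and IFNγ library 4 or 5 (0.345 and 0.643). CT010467.1 was also lost without media library 4 (0.0677), IFNγ plus FK866 library 4 or 5 (1 and 0.298) and IFNγ library 3 or 4 (1 and 0.0733).

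Immediate early genes, which growth factor and stress signalling switch on within minutes, were the list with the highest share of members at an unadjusted p below 0.05 between the combination and IFNγ alone. Against media, 13 of 32 tested members were higher and 12 lower (5 and 1 without the block; 5 lower without number 4 and 6 without IFNγ plus FK866 library 4), with a median of -0.05. Zfp36, which destabilises cytokine mRNAs, had a log2 fold change of 2.02, Atf3, a stress factor, 2.28 and Jun, a subunit of AP-1, 1.31. Nr4a1, an orphan nuclear receptor, had -0.86, Spry2, an inhibitor of receptor tyrosine kinase signalling, -1.01 and Fosb, another AP-1 subunit, -1.26. Fosb had 7.27, 4.1 and 4.77 CPM in media and 2.18, 1.97 and 2.49 CPM with the combination, with a mean of 3.65 ± 0.617 CPM with IFNγ alone. Every library of the combination was below every library of media and of IFNγ alone. Without the block Nr4a1 and Spry2 were not called against media (adjusted p = 0.314 and 0.33).

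In the direct contrast with IFNγ alone, 11 of these 32 genes had an unadjusted p below 0.05, and all 11 were lower with the combination in every pair. They were Atf3, Btg2, Ccn1, Dusp6, Fos, Fosb, Ier3, Junb, Maff, Nr4a1 and Spry2. The share was 34.4%, beside 3.76% over all genes tested. Of all 32, 20 were lower in every pair (62.5%), beside 16.2% over all genes tested. This was not particular to the list: the share was 68.2% for NRF2 targets and redox genes, 48% for the TCA cycle, 46.2% for checkpoint ligands, 45% for p53 targets and 44.8% for glycolysis. None passed the adjustment (adjusted p = 0.987 for each of the 11 in edgeR), and this list was picked out after the direct counts of all 37 lists had been seen, so the pattern is a description with no test. Btg2, an antiproliferative p53 target, rose with IFNγ alone by 1.79 and with the combination by 1.34, a direct difference of -0.45 (95% interval -0.70 to -0.21), and its rise against media was not called without the block (0.782). Ccn1, a matrix protein, had 112 ± 34.4 CPM with IFNγ alone and 95.1 ± 28.7 CPM with the combination, a difference of -0.24 (-0.37 to -0.11). The count was 6 without number 4, without IFNγ library 3 or without IFNγ library 4, and 1 without the block. Without number 3 it was 10, of which 9 were lower.

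**Figure D5:**
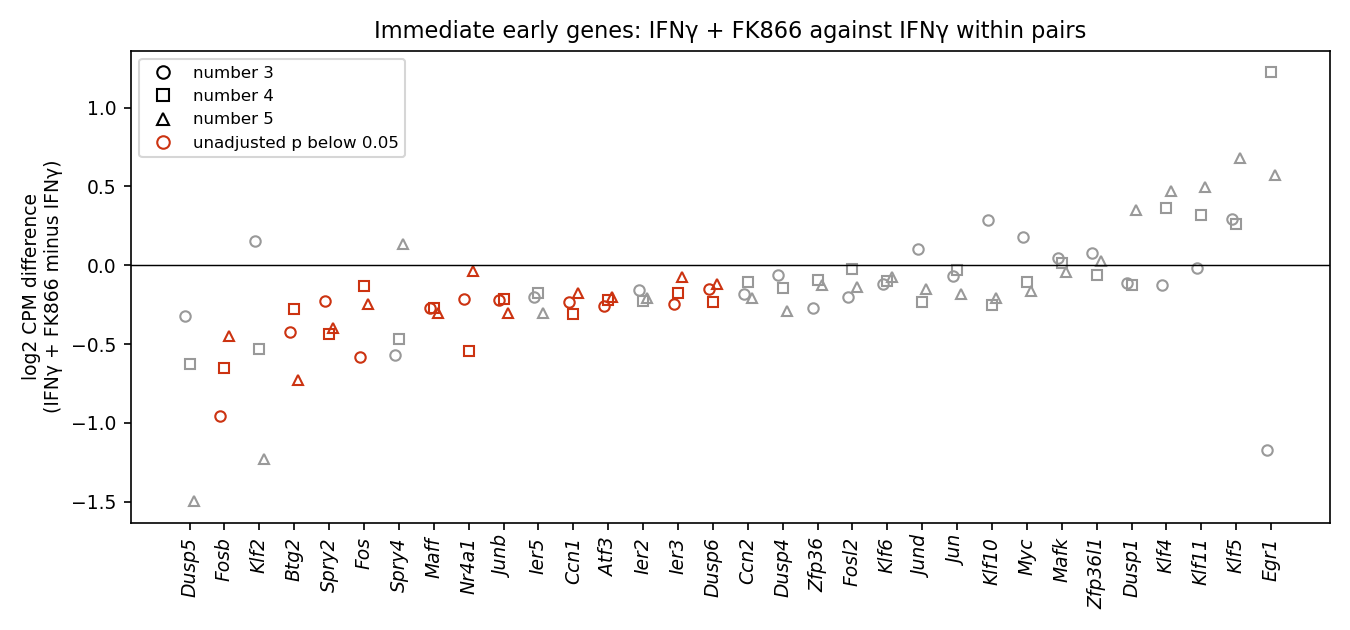
Difference in log2 CPM between IFNγ plus FK866 and IFNγ alone within each pair, for the 32 tested immediate early genes ordered by their fitted difference. Red marks the 11 genes with an unadjusted p below 0.05, all of which lie below 0 in all 3 pairs.

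Among genes of at least 5 CPM with the smallest p-values against IFNγ alone, Gja3, a connexin, fell from 99.6, 88.9 and 56.3 CPM in media to 45.2, 39.5 and 25.5 CPM, with -1.15 on the log2 scale beside -0.85 with IFNγ alone (not called against media without the block, adjusted p = 0.0886). Its direct difference was -0.31 (95% interval -0.46 to -0.15, unadjusted p = 0.000533, adjusted p = 0.987 in edgeR). Gbp4 had 42.4 ± 6.26 CPM with the combination and 35.4 ± 8.3 CPM with IFNγ alone (direct difference 0.27, 0.09 to 0.46). Sat1, which breaks down polyamines, had 31.4 ± 7.39 and 38 ± 6.49 CPM (-0.28, -0.44 to -0.13). None of these passed the adjustment.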

How the data were processed

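RNA-seq was run on polyA RNA of B16F10 cells, with 3 libraries in each of 3 groups. The deposited table holds raw counts per gene for 55487 Ensembl genes. Per the submitters' processing notes, reads were handled with cutadapt and STAR 2.7.6a, with featureCounts 1.6.3 and with DESeq2 1.30.1 on the GRCm38 (mm10) build. No source used here gives the strand setting, the annotation release or whether cultures were separate. The series text names a single-cell platform, while the table has 1 column for each library and was treated as bulk data. Symbols were found for 55141 genes and GENCODE M21 entries for 55227. No column belonged to another sample.

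Counts were filtered with filterByExpr, scaled by TMM and fitted with edgeR 4.0.16 (R 4.3.3) over all 9 libraries, with group and library number as terms. Adjusted p-values are Benjamini-Hochberg values over 15237 genes. SDs are over 3 libraries, pair differences use a prior count of 2, and folds against a group without reads use a floor of 3 counts over that group. Counting intervals are exact 95% intervals, and like the floors they cover counting error only. Scripts were tested on simulated data.

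Libraries of the same number deviated together: the correlation of their deviations from the group means was 0.555 to 0.602 in the 3 pairs of media and combination, against -0.367 to -0.134 between different numbers of these 2 groups. Deviations from a group mean sum to 0 over its 3 libraries. Positive values within pairs therefore force values between numbers to be negative on average, so the negative range is no separate evidence for the pairing. The pairing comes from the shared Control number in the labels. No replicates matched within counting noise. The members, the block, the 37 gene lists (818 genes) and the tests were chosen with earlier results of these data known. For 5 list symbols a RefSeq synonym was used after the count table had been matched, which added Ccn1 and Ccn2 to the immediate early genes.

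Genes were named by rule: Nampt, Irf1, Cd274, Cxcl10, B2m and Mitf, the 12 largest rises and falls of at least 5 CPM whose groups did not overlap, the 8 largest in CPM each way, the 3 smallest p-values of each list, the genes called against IFNγ alone and the 4 smallest p-values there each way and the 5 with the widest pair range. Other list members were named after their values were seen. Some genes that the rule names are not reported here. Alternatives were no block, 6 libraries alone, other scaling, DESeq2 1.42.0, limma-voom (limma 3.58.1), no filter, and leaving out each library or number.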

Additional observations from a re-analysis of the deposited data

How the results depend on the processing

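Without the replicate block the median standard error rose from 0.107 to 0.212, 421 genes were higher and 91 lower (326 and 28 by at least 2-fold), and no gene differed from IFNγ alone. The counts of higher and lower genes were 1095 and 823 in a fit of the 6 libraries alone, 1309 and 1129 with size factors of the DESeq2 kind, 1324 and 1214 with library totals, 1119 and 906 with DESeq2, 1292 and 1164 with limma-voom and 1391 and 1212 without a filter. Leaving out a library or number gave 855 to 1501 higher, 543 to 1343 lower and 57 to 117 lower by at least 2-fold. Against IFNγ alone the calls were 8 with 6 libraries, 1 with library totals, 1 with DESeq2, 20 without a filter, and 0 to 12 with libraries left out. For the comparison with media, leaving out an IFNγ library was added after seeing the data. The same holds for leaving out a media library in the direct contrast. Some genes that were not called changed sign against media: Psmb5 had 0.0108 without the block, 0.00276 with 6 libraries, 0.000836 with DESeq2-type size factors and 0.000374 with DESeq2. With libraries left out it ran from -0.10 to 0.11, Cd68 from -0.14 to 0.15, Gm24497 from -0.45 to 0.0932, Ifngr1 from -0.0856 to 0.21, Irgq from -0.12 to 0.0449, Naprt from -0.12 to 0.36, Sat1 from -0.0704 to 0.0111 and mt-Co2 from -0.44 to 0.14. Nampt against IFNγ alone ran from -0.11 to 0.0473. The cause of these moves was not tested. Totals of 15317003 to 18466972 counts leave genes with few media reads as bounds or wide intervals.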

Other observations

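The following genes were chosen after their values were seen. Of the genes called higher, 184 were not protein-coding, and 87 of them (47.3%) overlapped a protein-coding gene that was also called higher. The share was 3.39% (2 of 59) for non-coding genes called lower and 8.17% (273 of 3342) for all tested non-coding genes. Of 76 genes called higher in the TEC class of the annotation, 52 (68.4%) had such an overlap. The strand setting of the counting is not given, so reads of overlapping genes cannot be told apart.

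A stretch of chromosome 10 (GRCm38, 49000001 to 50000000) held 10 tested genes, of which 8 were higher by at least 2-fold, all of them non-coding models such as Gm47017. Over all genes tested the share was 3.54%. This stretch and the protocadherin stretch below came from the top of a ranking of equal windows by the number of such genes. Their counts are therefore high by choice. Grik2, a glutamate receptor subunit in the same stretch, had 66.5, 65.6 and 57.7 CPM in media and 97.4, 121 and 109.6 CPM with IFNγ plus FK866 (log2 fold change 0.79). Gm47022 had 9.91, 6.24 and 6.86 CPM in media and 10.7, 26.1 and 31.3 CPM with the combination, so number 3 hardly moved, and its call was lost without the block (adjusted p = 0.08 in edgeR). In a stretch that holds the gamma protocadherin cluster, neuronal adhesion genes with shared exons, 7 of 43 tested genes were higher by at least 2-fold, 5 of them protocadherins. Pcdhga5 had 6.71, 8.04 and 6.98 CPM in media and 6.58, 21.6 and 21.3 CPM with the combination, with pair differences of -0.03, 1.41 and 1.59. Its call was lost without number 4 (0.0751) and without the block (0.259).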
